A study of Mus musculus with 3 samples.

Results

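Tetraspanins are small membrane proteins that pass through the cell membrane several times and hold a conserved extracellular loop. They gather integrins, proteases, signalling receptors and other tetraspanins into patches of the membrane, and they are carried on the small vesicles that cells release. In the glomerulus the best known member is CD151, which binds the laminin-binding integrin of the podocyte foot process, and mice without it develop defects of the glomerular basement membrane.

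The genes were chosen by symbol in the platform annotation, namely those that begin with Tspan and a number and 9 further symbols (Cd9, Cd37, Cd53, Cd63, Cd81, Cd82, Cd151, Upk1a and Upk1b). No probe set had Cd63 as its only symbol, and 8 of the 9 were found. This gave 27 genes with 61 probe sets, of 18193 genes and 45101 probe sets in all. The 3 arrays measured glomeruli of nondiabetic male FVB/NJ mice at 8 weeks of age, with 1 array per mouse. FVB/NJ is an inbred strain, the labels name no transgene, all mice ate a Purina mouse diet, and each RNA sample came from many isolated glomeruli of a single mouse. These mice are the nondiabetic controls for the diabetic OVE26 line, which was not analysed here, so the question that can be addressed is which tetraspanin genes were measured in control glomeruli and how far the mice differed.

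All values are log2 expression values, so that a difference of 1 is 2-fold, and errors are SD over the mice (n = 3). A value counted as above background when it exceeded a floor set on each array by olfactory and vomeronasal receptor probe sets, at 2.58, 2.91 and 2.86 in mice 1, 2 and 3. A gene was read from its brightest probe set, and since probe sets differ in how strongly they bind, values were compared between mice and not between genes. A summed level adds the unlogged values of all genes of a list on the array, so its brightest probe sets weigh most. Every mouse exceeded the floor for all 6 podocyte, all 8 endothelial and all 4 mesangial marker genes found on the array. So low a floor cannot tell pure glomeruli from glomeruli with tubule tissue. The loop gene Umod was also far above it, at 12.47, 13.56 and 13.06 in mice 1, 2 and 3. The purity of the samples was not tested. Tubule and leukocyte genes differed between the mice. They are given beside some of the tetraspanin genes, and the order of the mice was not always the same.

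Most tetraspanin genes were measurable in these glomerular samples. Of the 27 genes 21 (77.8%) were above background in all mice, beside 58.3% of all genes on the array. They were Cd9, Cd53, Cd81, Cd82, Cd151, Tspan2, Tspan3, Tspan4, Tspan5, Tspan6, Tspan8, Tspan9, Tspan12, Tspan13, Tspan14, Tspan15, Tspan17, Tspan18, Tspan31, Tspan32 and Tspan33. Below background in every mouse were 4 genes: Cd37, a leukocyte tetraspanin; Tspan10, which is known from pigment cells of the eye; Tspan11; and Upk1b, which forms the plaques of the urothelium. Upk1a, its urothelial relative, exceeded the floor in mouse 1 alone, with 2.91, 2.89 and 2.69 in mice 1, 2 and 3. Tspan1, an epithelial tetraspanin, exceeded it in mice 1 and 2. With a stricter floor, the 99th percentile of the receptor probe sets in place of the 95th, Tspan32 was no longer above it in all mice.

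**Figure D1:**
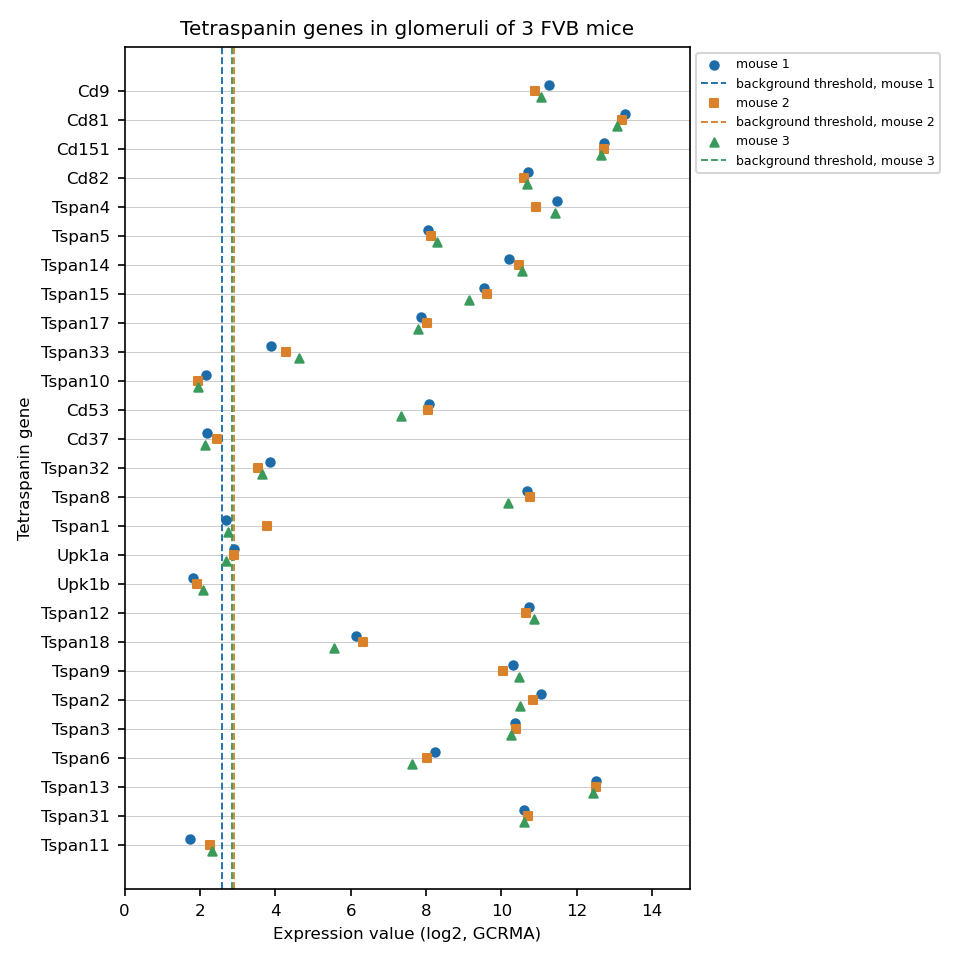
Log2 expression value (horizontal axis) of the 27 tetraspanin genes, grouped by role (vertical axis), with 1 point per mouse and dashed lines for the background threshold of each array. The points of a gene lie close together, and Cd37, Tspan10, Tspan11 and Upk1b lie left of the thresholds in all mice.

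The genes above and below background differed in the sequence before their start. RefSeq (build GRCm38.p6) gave a start for 25 of the 27 genes, and the 250 bases before the most upstream start were read for each. For 13 of the 25 that start was the same base as the gene start in the reference gene table. The CpG ratio is the number of CG pairs over the number that the C and G content would give. It lay between 0 and 0.378 (median 0.168) for the 5 genes that missed the floor in at least 1 mouse, and between 0.0518 and 1.07 (median 0.661) for the 20 that were. A ratio over 0.4, a limit chosen after the values were seen, was found for 17 of the 20 (85%) and 0 of the 5, beside 85.7% and 44.3% of all genes with those calls. The 3 measured genes under it were Cd53, Tspan32 and Tspan8. All genes on the array showed the same division, with medians of 0.746 above background and 0.344 otherwise, so it is not particular to tetraspanins. A stretch from each kind is shown, with every CG pair in capitals: a gene measured in all mice and found on many cell types (Cd9), the member with the most CG pairs (Tspan5), a leukocyte gene measured in all mice (Cd53) and the urothelial gene Upk1a. Cd9 lies on the minus strand at chr6:125494761-125495010 and held 16 pairs, Tspan5 on the plus strand at chr3:138741958-138742207 held 33, Cd53 on the minus strand at chr3:106790150-106790399 held 2, and Upk1a on the minus strand at chr7:30612735-30612984 held 0.
Cd9: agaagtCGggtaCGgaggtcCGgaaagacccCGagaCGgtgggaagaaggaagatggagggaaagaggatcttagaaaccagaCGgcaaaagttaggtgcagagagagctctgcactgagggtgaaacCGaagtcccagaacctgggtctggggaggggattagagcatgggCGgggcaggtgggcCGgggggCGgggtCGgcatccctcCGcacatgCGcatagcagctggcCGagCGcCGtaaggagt
Tspan5: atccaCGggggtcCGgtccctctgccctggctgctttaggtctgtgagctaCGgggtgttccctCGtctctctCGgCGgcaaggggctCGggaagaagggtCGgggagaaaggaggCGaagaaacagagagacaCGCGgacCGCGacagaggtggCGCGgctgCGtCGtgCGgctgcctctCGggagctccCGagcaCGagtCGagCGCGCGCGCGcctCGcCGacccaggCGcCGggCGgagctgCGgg
Cd53: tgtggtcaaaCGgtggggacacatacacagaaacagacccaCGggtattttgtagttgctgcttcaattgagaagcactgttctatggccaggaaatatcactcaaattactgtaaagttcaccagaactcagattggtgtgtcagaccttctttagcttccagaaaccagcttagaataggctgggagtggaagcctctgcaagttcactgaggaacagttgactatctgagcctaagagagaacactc
Upk1a: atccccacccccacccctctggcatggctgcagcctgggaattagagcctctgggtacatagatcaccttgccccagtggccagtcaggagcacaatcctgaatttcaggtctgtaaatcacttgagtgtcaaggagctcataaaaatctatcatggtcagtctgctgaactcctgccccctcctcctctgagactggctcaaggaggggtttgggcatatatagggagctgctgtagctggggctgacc

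Core promoter motifs were searched in the same windows on both strands. The GC box GGGCGG, which binds Sp1 and related factors, was present for 11 of the 20 genes above background (55%) and for 2 of the 5 others, beside 61.5% and 32.7% of all genes with those calls. The TATA motif TATAAA was found for Tspan12 alone, beside 9.01% of all genes. The CCAAT motif was found for 7 of the 25 genes (28%), beside 35.9% of all genes. By call it was 7 of 20 and 0 of 5, beside 36% and 35.7% of all genes, which thus hardly differed by call. A match describes the letters in the window and does not show that a factor binds there. Of the 25 genes 6 had further starts, whose windows had CpG ratios between 0.117 (Tspan9) and 0.723 (Tspan2).

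**Figure D2:**
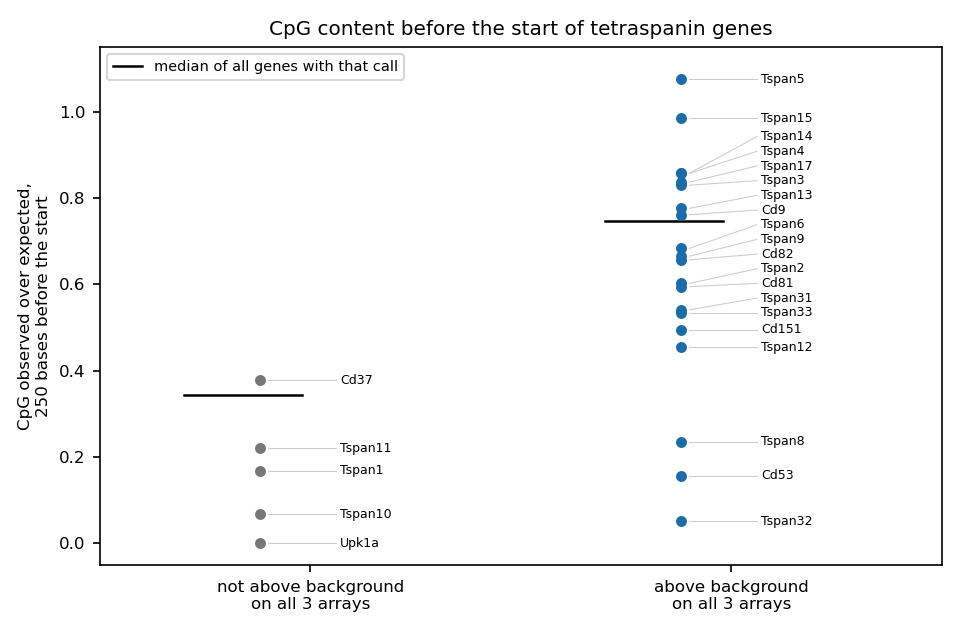
CpG observed over expected in the 250 bases before the start (vertical axis) of 25 tetraspanin genes, split by whether the gene was above background on all 3 arrays. Points are genes and black bars are the medians of all genes with that call (0.344 and 0.746). Cd53, Tspan32 and Tspan8 lie low among the measured genes.

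The differences between mice in tetraspanin levels were all under 2-fold among the 21 genes above background. None of them had a 2-fold range, meaning a difference of at least 1 between the highest and the lowest mouse, beside 5.94% of all such genes, a share so low that 0 of 21 is near it. The widest range was that of Tspan18, at 0.755 or 1.69-fold. SDs ran from 0.041 (Tspan13) to 0.415 (Cd53), with a median of 0.181 beside 0.157 for all genes above background, and 11 of the 21 exceeded the latter. Without mouse 3 the median was 0.099, beside 0.119 for all genes. The limma test of excess variance called 0 of the 21 genes at an adjusted p of 0.05, with adjusted p of at least 0.972, and 0 at an unadjusted p under 0.05, beside 4.65% of all genes. The latter count was 2 without mouse 3 and 1 with no filter on dim genes. The same test called 0% of all 10609 genes after adjustment, with a lowest adjusted p of 0.469, so the absence of a call does not show that the mice were alike.

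What differences there were placed mouse 3 low more often than the other mice. Among the 21 genes 11 were lowest in mouse 3, 6 in mouse 2 and 4 in mouse 1, beside 31.7%, 35.0% and 33.3% of all genes above background. Highest in mouse 1 were 10, in mouse 2 6 and in mouse 3 5, beside 35.1%, 28.6% and 36.3% of all genes. After quantile normalisation 8 were highest in mouse 1, and 11 were again lowest in mouse 3. The median difference between mouse 3 and the mean of the others was -0.069 for the tetraspanins and 0.011 for all genes above background. Actin control probe sets, whose 3′ minus 5′ difference grows as RNA is shortened, gave 1.49, 1.81 and 2.05 in mice 1, 2 and 3, and those of Gapdh gave 0.48, 1.08 and 0.92. All 6 podocyte marker genes were lowest in mouse 3 too, and the log2 of their summed level was 15.89, 15.90 and 15.78. So were all 3 smooth muscle marker genes above background (log2 summed level 11.16, 11.48 and 10.76). The same held for the 3 leukocyte genes Ptprc, Laptm5 and Coro1a (8.49, 7.49 and 6.37). None of the 8 proximal tubule or the 6 loop and distal tubule genes above background was lowest in mouse 3. The part of RNA quality and of cell content in the small differences of the tetraspanin genes was not tested. In such bulk samples fewer cells of a type and less RNA per cell cannot be told apart.

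**Figure D3:**
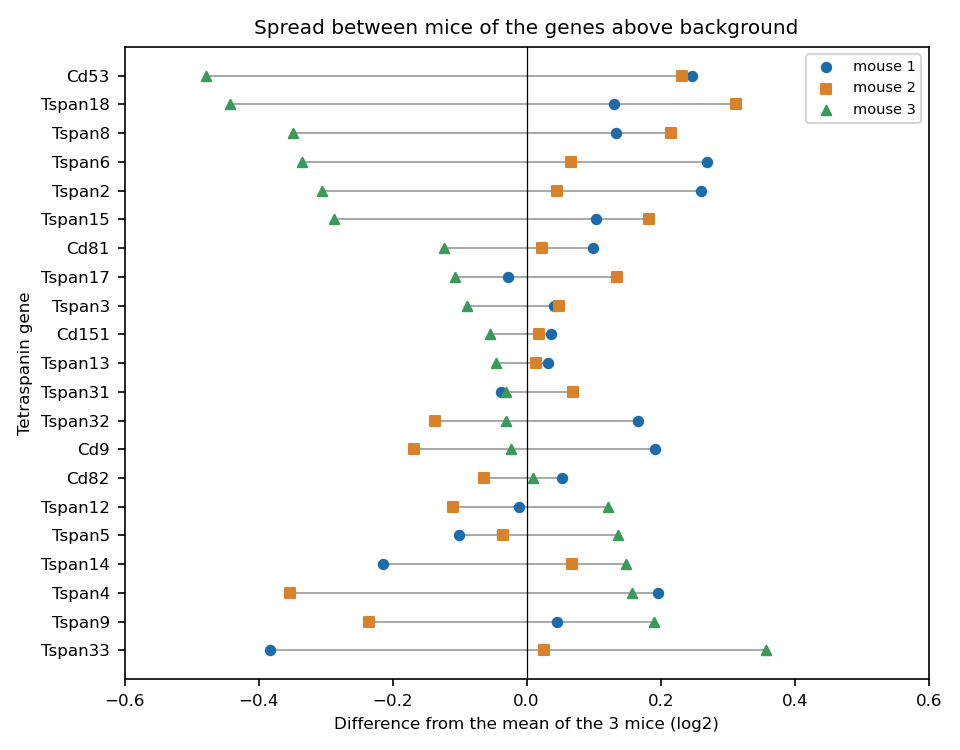
Difference of each mouse from the mean of the 3 mice (log2, horizontal axis) for the 21 tetraspanin genes above background (vertical axis), sorted by mouse 3 against the others; lines span the range of each gene. Cd53 and Tspan18 have their lowest value in mouse 3 and Tspan33 has its highest there.

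Among the widely expressed tetraspanins Cd151, Cd81 and Cd82 lay close together across the mice, whereas Cd9 and Tspan4 were lower in mouse 2. Cd151 was at 12.73, 12.71 and 12.64 in mice 1, 2 and 3, an SD of 0.048 (limma, adjusted p = 0.993). The name of that probe set ends in _x_at, which marks probes shared with other transcripts. A bright probe set of Cd151 without such an ending, at 11.79, 11.67 and 11.54, had an SD of 0.13. Cd81, part of the B cell co-receptor and found on most cells, was at 13.28, 13.21 and 13.06 (SD 0.11). Cd82, known as a suppressor of metastasis, was at 10.72, 10.60 and 10.67 (SD 0.059). For Cd151 and Cd81 mouse 3 was the lowest, and for Cd82 it lay between the others. Cd9, which acts in adhesion and in the fusion of egg and sperm, was at 11.26, 10.90 and 11.04 (SD 0.18), with mouse 1 the highest and mouse 2 the lowest. Hbegf, whose membrane-bound growth factor associates with CD9, was at 9.41, 8.84 and 9.30 and was also lowest in mouse 2 and highest in mouse 1. Tspan4, which is concentrated in the migrasomes that crawling cells leave behind, was at 11.46, 10.91 and 11.42 (SD 0.31). Mouse 2 stood below mice 1 and 3, which lay close to each other. Among cell type markers 3 of the 4 mesangial genes (Pdgfrb, Gata3 and Des) and 4 of the 8 endothelial genes were lowest in mouse 2 too, with a log2 summed level of the mesangial list of 14.60, 14.56 and 14.59, and their part in the Cd9 and Tspan4 values was not tested.

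The tetraspanins that escort the protease ADAM10, which sheds receptors such as Notch, formed a group of 6 genes, and all but Tspan10 were above background. Tspan14 was at 10.19, 10.47 and 10.55 in mice 1, 2 and 3 (SD 0.19), and Tspan5 was at 8.06, 8.13 and 8.30 (SD 0.12). Both were lowest in mouse 1 and highest in mouse 3. Tspan15, which directs ADAM10 to N-cadherin, was at 9.53, 9.61 and 9.13 (SD 0.25), and Tspan17 was at 7.87, 8.04 and 7.79 (SD 0.12). These were highest in mouse 2 and lowest in mouse 3, so that the brightest probe sets of the escorts did not share an order of the mice. The second probe set of Tspan5, at 7.95, 8.13 and 7.83, did have the order of Tspan15 and Tspan17. Tspan33 was at 3.88, 4.29 and 4.62 (SD 0.37), and it had the widest range of the group, 0.74. The 8 of 10 proximal tubule marker genes above background were also all highest in mouse 3, and the log2 of the list's summed level was 10.52, 11.04 and 13.03. Kap, the brightest gene of that list, was at 10.30, 10.81 and 12.62. The tubule's part in the Tspan33 values was not tested, and a second probe set of Tspan33 was highest in mouse 2 instead (3.41, 4.11 and 3.43). Adam10 itself was at 11.36, 11.53 and 11.45 (SD 0.085), lowest in mouse 1 and highest in mouse 2.

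Among leukocyte tetraspanins Cd53 and Tspan32 were measured and Cd37 was not above background. Cd53, a marker of most white blood cells, was at 8.07, 8.05 and 7.34 in mice 1, 2 and 3 (SD 0.41, limma adjusted p = 0.972). Mouse 3 lay below the other mice, which were nearly equal. The pan-leukocyte gene Ptprc was at 7.43, 6.58 and 5.13, Laptm5 at 6.61, 5.27 and 4.62 and Coro1a at 6.48, 5.51 and 4.54. All 3 of these marker genes were highest in mouse 1 and lowest in mouse 3, with mouse 1 well above mouse 2. The macrophage gene Csf1r, at 8.01, 8.23 and 7.69, was lowest in mouse 3 but, like Cd53, did not stand well above mouse 2 in mouse 1. Of 10 macrophage marker genes 5 exceeded the floor in every mouse. Unlike Csf1r, the other 4 of these were highest in mouse 1, among them Lyz2 (9.47, 8.22 and 7.02) and Tyrobp (6.78, 4.79 and 3.36). Of the 5 genes 4 were lowest in mouse 3, and the list had a log2 summed level of 10.26, 9.44 and 8.75. Cd68, C1qa and C1qc of that list were below background in every mouse. Of 7 lymphocyte marker genes 2 (Cd3e and Cd79a) were below it in every mouse, 4 exceeded it in 1 mouse and Ighm exceeded it throughout (3.63, 3.91 and 3.62). The part of leukocytes in the Cd53 values was not tested. Tspan32, which is expressed in blood cells, was at 3.85, 3.55 and 3.65 (SD 0.15), close to the floor. Cd37 was at 2.20, 2.45 and 2.13.

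Epithelial tetraspanins gave the single case of a 2-fold range. Tspan1 was at 2.69, 3.79 and 2.75 in mice 1, 2 and 3, a range of 1.10 or 2.14-fold. Mouse 2 alone lay well above the floor used here (2.91 on its array), yet under the stricter 99th percentile floor of that array, 3.89. The 2-fold range thus rests on 1 value near background. The other probe set of Tspan1 was below background in every mouse (2.35, 2.25 and 2.22). Tspan8, a tetraspanin of many epithelia and carcinomas, was at 10.67, 10.75 and 10.19 (SD 0.31), lowest in mouse 3. Among the loop and distal tubule marker genes 5 of the 6 above background were highest in mouse 2, with Umod at 12.47, 13.56 and 13.06 and a log2 summed level of the list of 12.75, 13.96 and 13.38. Epcam, an epithelial adhesion protein that joins complexes with TSPAN8, was at 4.28, 6.93 and 5.13. Tspan1 and Epcam were thus highest in the same mouse as the loop genes, while Tspan8 was nearly as high in mouse 1 as in mouse 2. The part of tubule RNA in these values was not tested. The urothelial tetraspanin Upk1b was at 1.82, 1.93 and 2.08, below the floor in each mouse. Of the 4 urothelial marker genes Upk3a and Krt20 were below it in every mouse, Upk2 exceeded it in mouse 1 alone, and the keratin gene Krt5 exceeded it throughout (3.69, 3.20 and 3.04).

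**Figure D4:**
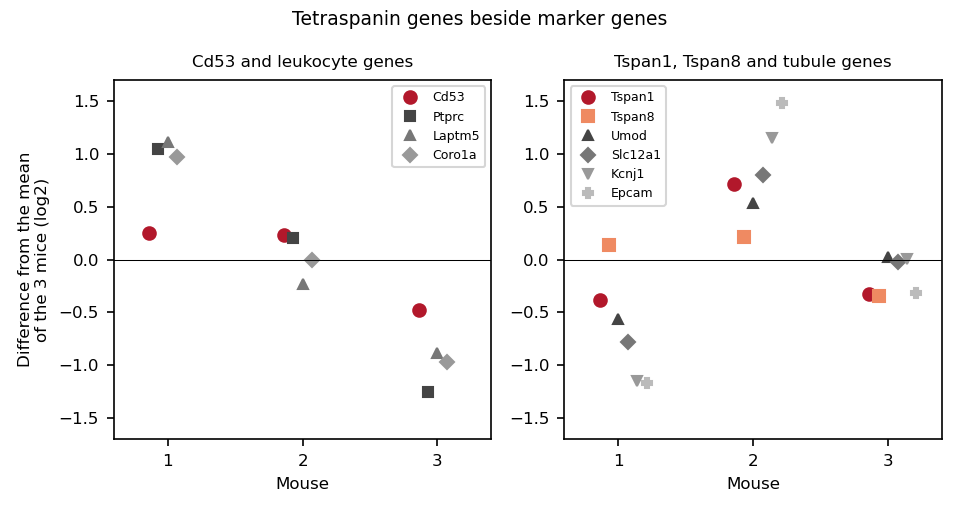
Difference of each mouse from the mean of the 3 mice (log2, vertical axis) by mouse (horizontal axis), for Cd53 beside 3 leukocyte genes on the left and for Tspan1 and Tspan8 beside 3 loop genes and Epcam on the right. Cd53 differs less between mice 1 and 2 than the leukocyte genes do. Tspan1 is highest in mouse 2, as are Umod, Slc12a1, Kcnj1 and Epcam, but its value there is near background.

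Tspan12 and Tspan18 have known roles in endothelium. Tspan12, a co-receptor of norrin at the receptor encoded by Fzd4, was at 10.74, 10.64 and 10.87 in mice 1, 2 and 3 (SD 0.12), and Fzd4 was at 8.78, 8.74 and 8.93 (SD 0.10). Both were highest in mouse 3 and lowest in mouse 2, with SDs below the median of all genes. Ndp, which encodes norrin, was below background (1.88, 1.80 and 1.80), and the co-receptor gene Lrp5 was at 2.89, 2.71 and 2.85, above it in mouse 1 alone, whereas Lrp6 was above it in every mouse (10.33, 10.36 and 10.56). Tspan18, which regulates calcium entry in endothelial cells, was at 6.14, 6.32 and 5.57 (SD 0.39) and thus lowest in mouse 3. Its second probe set, at 4.52, 4.71 and 4.65, did not place mouse 3 lowest. The 8 endothelial marker genes did not share this order, as 4 were lowest in mouse 3 and 4 in mouse 2, with 6 highest in mouse 1 and 2 in mouse 3. The log2 of their summed level was 15.10, 14.89 and 14.92, and the endothelium's part in the Tspan18 values was not tested.

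The remaining tetraspanin genes have less settled roles. Tspan9, known from platelets and their precursors, was at 10.32, 10.03 and 10.46 (SD 0.22), lowest in mouse 2 and highest in mouse 3. Of the 4 platelet marker genes Itga2b was below background in every mouse, and the other 3 exceeded it in mouse 1 alone, with Ppbp at 4.07, 2.36 and 2.74. Tspan2, which is abundant in myelin-forming cells of the brain, was at 11.06, 10.85 and 10.49 in mice 1, 2 and 3 (SD 0.29), and Tspan6 was at 8.22, 8.02 and 7.62 (SD 0.31). On these probe sets both lay lower in mouse 3 than in the other mice, but a second probe set of Tspan6 had mouse 1 lowest. Tspan3 was at 10.37, 10.38 and 10.24 (SD 0.077), Tspan13 at 12.51, 12.49 and 12.43 and Tspan31 at 10.59, 10.70 and 10.60 (SD 0.060). On their brightest probe sets these 3 were among the closest across the mice. The second probe set of Tspan13, at 10.87, 10.55 and 10.43, spread more widely (SD 0.22). Tspan10 (2.17, 1.96 and 1.94) and Tspan11 (1.73, 2.28 and 2.32) stayed below the floor, where differences carry no order.

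Where a gene had several probe sets, they did not always agree on the order of the mice. Of the 61 probe sets 38 were above background in all mice, 18 in none and 5 in some, and 11 genes had more than 1 above it in all mice. For 5 of the 11, namely Cd151, Tspan2, Tspan9, Tspan13 and Tspan17, all such probe sets had the same highest and the same lowest mouse. The 4 bright probe sets of Cd151 were each highest in mouse 1 and lowest in mouse 3, although 2 other probe sets of Cd151 did not exceed the floor in every mouse (2.20, 2.24 and 2.46 for one, 2.79, 2.49 and 2.65 for the other). The 3 probe sets of Tspan2 agreed that mouse 1 was highest and mouse 3 lowest, so its small difference does not rest on a single probe set. For Tspan5, Tspan6, Tspan8 and Tspan31 they agreed on neither end. The second probe set of Tspan6, at 6.99, 7.14 and 7.08, had mouse 1 lowest, where the brightest had it highest. Among the 5 probe sets of Tspan8, 4 were lowest in mouse 3. Of the 61 probe sets 8 end in _x_at and 3 in _s_at, names that mark probes shared with other transcripts.

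**Figure D5:**
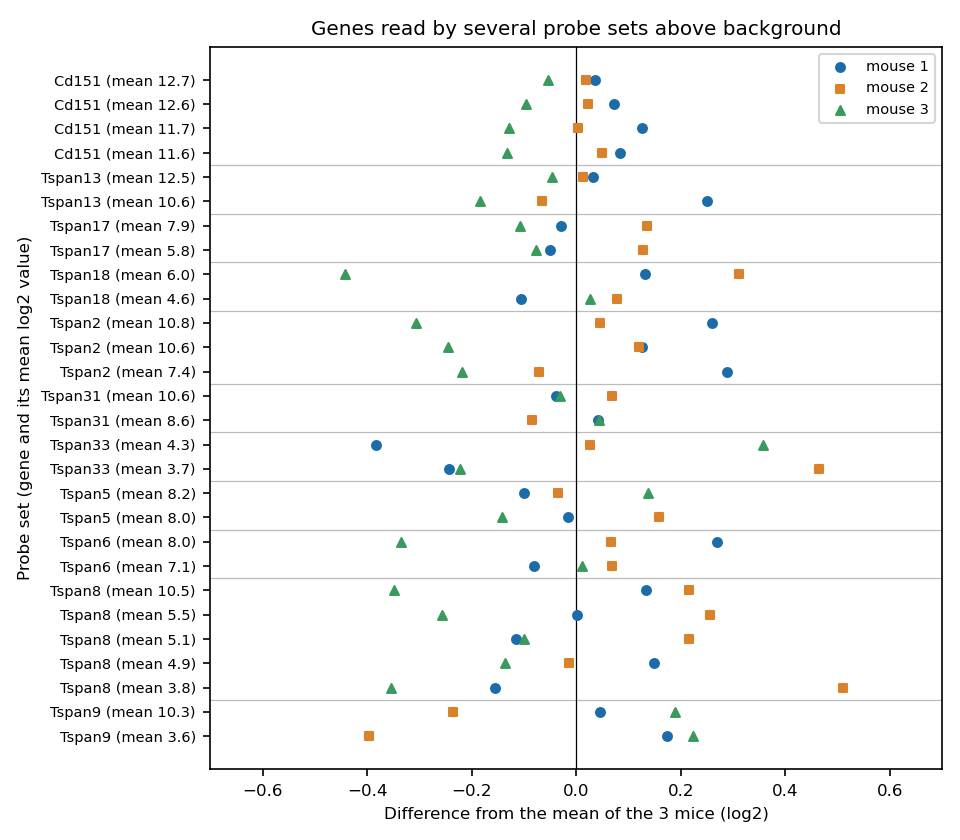
Difference of each mouse from the mean of the 3 mice (log2, horizontal axis) for each probe set above background of the 11 genes with several (vertical axis, with the mean log2 value of the probe set). The probe sets of Cd151 and Tspan2 repeat one order of the ends, and those of Tspan5, Tspan6 and Tspan31 do not.

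Several members are close neighbours in the genome. On chromosome 7 the most upstream starts of Cd151 and Tspan4 lie 7.87 kb apart, and those of Tspan32 and Cd81 lie 47.7 kb apart, each pair on the same strand (GRCm38.p6). The range over the mice was 0.09 for Cd151 and 0.55 for Tspan4, and 0.30 for Tspan32 and 0.22 for Cd81. On chromosome 6 Tspan9 was above background in every mouse, and Tspan11, whose start lies 256 kb away, was not.

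Most of the partner genes listed for this report were above background in these samples. Of 29 partner genes 28 had a probe set, and 20 of these exceeded the floor in every mouse, beside 58.3% of all genes. Epcam alone of the 20 had a 2-fold range, beside 5.94% of all genes above background. The limma test called 0 of the 20, beside 0% of all genes. Again Epcam alone had an unadjusted p under 0.05, beside 4.65%. Thus 1 of 20 is near the share of all genes in both counts. Their median SD was 0.126, beside 0.181 for the tetraspanins, a difference that was not tested. Among the laminin-binding integrin genes 4 of 5 were above background, with Itga3, the partner of CD151, at 10.14, 10.29 and 10.40 in mice 1, 2 and 3 and Itgb4 below background. The immunoglobulin partners of CD9 and CD81 were above background for all 3 genes, including Ptgfrn at 3.584, 4.005 and 3.563. All 4 vesicle genes were above background too, with the syntenin gene Sdcbp at 11.41, 11.40 and 11.32. None of the 3 uroplakin partners was above background in all mice, with Upk2 at 2.67, 2.66 and 2.52, and the B cell co-receptor gene Cr2 was below it.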

How the data were processed

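Glomerular RNA of 3 FVB mice was measured on 1 array each. Per the submitters' processing notes the authors summarised the arrays with GCRMA (version not given in the sources used here), and the deposited values were read as log2, a scale inferred from their range of 0.67 to 14.76. No source used here says which arrays were normalised together. On each pair of arrays 2.18% to 2.49% of probe sets have identical values.

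Probe sets with 1 gene symbol in the platform annotation were used (34945, without controls), and the probe set with the highest mean stood for a gene. All 27 tetraspanin genes matched the reference table. Background was the 95th percentile of 80 olfactory and vomeronasal receptor probe sets on each array. Excess variance was tested across all 10609 genes above background with limma 3.58.1 in R 4.3.3 (trend on level, robust fit, one-sided, Benjamini-Hochberg), and the script was tested on simulated data. The number of arrays and the signal over background limit the precision. Replicates are separate mice per the labels. All tetraspanin genes are named; partner genes are named where first in a list, or where they had a 2-fold range, and Fzd4, Lrp5, Lrp6 and Itgb4 were added after their values were seen. Protein sequences were not used here, and promoter windows came from RefSeq. The members and the lists were chosen with earlier results of these data known. Alternatives were another floor, no floor, the mean over probe sets, renormalisation, a plain variance model and leaving out each mouse. There were 0 unused columns of values.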

Additional observations from a re-analysis of the deposited data

How the results depend on the processing

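Over the alternatives, 20 to 22 tetraspanin genes were above background and none was called for excess variance. The count with a 2-fold range was 0, except that it was 1 (Tspan1) with no filter on dim genes; leaving out a mouse gave 0 to 1, the latter, again Tspan1, without mouse 3. The median SD was 0.141 to 0.186, except that leaving out a mouse gave 0.099 (without mouse 3) to 0.163. The cause was not tested, and leaving out a mouse also leaves fewer values per gene. The median SD over all genes above background was 0.157 with all mice. It was 0.128, 0.135 and 0.119 without mouse 1, mouse 2 and mouse 3. The filter could not be left out for the count above background, which it defines. With the mean over probe sets, the SD moved by more than 1.5 times for 12 of the 27 genes, with quantile normalisation for 2 and with median centring for 0. It moved for 6 genes without mouse 1, for 7 without mouse 2 and for 14 without mouse 3. Genes near the floor, such as Tspan1, Tspan32 and Upk1a, depend on where it is set. No paired analysis was possible because there is 1 group.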

Other observations

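A pair of genes of the tetraspanin superfamily carry names outside the symbols used here, both known from photoreceptor outer segments. Rom1 was above background in every mouse (5.20, 5.35 and 5.43 in mice 1, 2 and 3), and Prph2, its partner in the retina, was below it (0.93, 1.26 and 1.48).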
